A study of Mus musculus with 8 samples.

Results

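The genes described here are the 266 genes of the mouse retina that had at least 20 accessible chromatin peaks annotated to them in a wild-type (WT) library, of 16306 genes with any annotated peak in that library. They were chosen by their WT peak number alone, so that number and every ratio over it are given as descriptions, with no test. Together they held 7324 of the 56797 WT peaks and 9679 of the 91130 peaks of a Spata7 mutant (KO) library. A peak that named several genes was counted for each of them, and 343 WT peaks belonged to more than 1 of the 266 genes. The number per gene ran from 20 to 314 WT peaks with a median of 25, and 7 genes had 50 or more.

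Accessible chromatin is DNA that a transposase can reach, and it marks promoters, enhancers and other sites where regulatory proteins bind. Genes that need precise control in a cell type often carry many such sites in their introns and flanks. In photoreceptors the homeodomain proteins OTX2 and CRX, together with NRL and other factors, bind many of these sites near genes of light detection. Rods make up most cells of the mouse retina, so a list of peaks from the whole retina holds many sites open in rods.

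Retinas of male mice were studied to follow photoreceptor degeneration in mice that lack the cilium protein gene Spata7. The ATAC data came from 1 WT library of C57BL6/J mice at 7 months and 1 library of Spata7 mutant mice at 6 months, made from nuclei on the Chromium system. Single-cell RNA came from 6 libraries, WT (C57BL6/J) and Spata7 mutant (the same background strain) at 1, 3 and 6 months, 1 library each, with reads per well of an ICELL8 nanowell chip. The labels give no number of animals per library, and the mutant is 1 line. The ATAC genotypes also differed in age, so genotype and age cannot be told apart in the peak lists.

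The targeted gene checked the labels. Spata7 had 26.1, 20.2 and 32.2 CPM (reads of a gene scaled to a common library total) in the WT RNA libraries of 1, 3 and 6 months and 4.07, 1.38 and 3.59 CPM in the KO libraries. In the ATAC lists it had 5 WT peaks, 1 of them a promoter peak, and 3 KO peaks with 0 promoter peaks. Y-linked genes gave no read in the library labelled WT 1 month, which had 110 CPM of Xist against its label as male. The remaining 5 RNA libraries gave 149 to 256 CPM of Y-linked RNA. The main RNA results are therefore given with and without it. The RNA libraries held 216 to 877 wells and 12356586 to 182310499 reads, and pairs of libraries shared 0 to 136 chip positions, which name wells and not cells. The ATAC depth is unknown, since the lists give no counts.

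The promoters of 7 of the genes are shown first, because the results contrast them with the distal peaks, where most differences lay: the windows of Cngb1, Abca4, Rgs9 and Epb41l2 lay under a peak in both lists while other WT peaks of these genes had no KO counterpart, Casz1 and Rora are photoreceptor factors whose KO promoter peak was narrower and wider, and Nckap5 has an internal start with a peak in KO alone. Each line is the 250 bases before a transcript start in RefSeq (GRCm38.p6), read 5′ to 3′ on the strand of the gene. Capitals mark TAATCC on either strand (GGATTA on the other), the core of sites that OTX2 and CRX bind. The windows are chr8:95306586-95306835 (Cngb1, minus strand), chr3:122044210-122044459 (Abca4, plus, an internal start), chr11:109298182-109298431 (Rgs9, minus), chr10:25408118-25408367 (Epb41l2, plus, an internal start), chr4:148889097-148889346 (Casz1, plus, an internal start), chr9:68653536-68653785 (Rora, plus, an internal start) and chr1:126492928-126493177 (Nckap5, minus, an internal start).
Cngb1: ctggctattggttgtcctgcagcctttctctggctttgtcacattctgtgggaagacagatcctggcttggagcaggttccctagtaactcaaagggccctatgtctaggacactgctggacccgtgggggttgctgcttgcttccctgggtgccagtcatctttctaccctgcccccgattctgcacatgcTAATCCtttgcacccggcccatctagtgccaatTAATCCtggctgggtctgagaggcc
Abca4: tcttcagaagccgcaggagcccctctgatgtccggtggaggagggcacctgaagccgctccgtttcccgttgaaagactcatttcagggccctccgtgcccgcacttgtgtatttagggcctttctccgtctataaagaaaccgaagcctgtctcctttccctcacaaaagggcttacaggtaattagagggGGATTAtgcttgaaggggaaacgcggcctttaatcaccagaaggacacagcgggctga
Rgs9: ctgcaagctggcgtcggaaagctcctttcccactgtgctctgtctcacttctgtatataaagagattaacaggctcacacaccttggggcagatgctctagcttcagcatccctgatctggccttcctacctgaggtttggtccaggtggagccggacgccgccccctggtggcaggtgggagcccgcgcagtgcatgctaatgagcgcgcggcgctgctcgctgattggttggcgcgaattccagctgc
Epb41l2: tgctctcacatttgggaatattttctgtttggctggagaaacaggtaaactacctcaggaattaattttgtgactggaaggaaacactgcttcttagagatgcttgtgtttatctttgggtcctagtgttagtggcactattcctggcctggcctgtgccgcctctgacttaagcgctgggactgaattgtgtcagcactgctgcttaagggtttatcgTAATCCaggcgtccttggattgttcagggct
Casz1: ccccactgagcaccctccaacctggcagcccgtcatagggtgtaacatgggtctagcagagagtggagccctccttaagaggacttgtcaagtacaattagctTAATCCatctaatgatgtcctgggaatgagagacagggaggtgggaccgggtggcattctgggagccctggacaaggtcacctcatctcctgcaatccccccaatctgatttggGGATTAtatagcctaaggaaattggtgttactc
Rora: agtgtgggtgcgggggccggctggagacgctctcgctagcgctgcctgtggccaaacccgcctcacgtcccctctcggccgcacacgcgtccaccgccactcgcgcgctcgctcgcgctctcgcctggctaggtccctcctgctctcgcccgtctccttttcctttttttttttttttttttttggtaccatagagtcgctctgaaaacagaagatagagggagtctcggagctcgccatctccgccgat
Nckap5: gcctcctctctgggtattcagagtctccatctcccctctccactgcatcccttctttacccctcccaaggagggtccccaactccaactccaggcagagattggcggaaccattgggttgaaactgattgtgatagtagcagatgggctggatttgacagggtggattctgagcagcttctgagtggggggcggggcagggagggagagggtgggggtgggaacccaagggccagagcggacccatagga

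TAATCC stood 2 times in the windows of Cngb1 and Casz1, 1 time in those of Abca4 and Epb41l2 and 0 times in those of Rgs9, Rora and Nckap5. Over all 32851 RefSeq windows of this length 6.25% held it, against 6.46% of the 325 windows of the peak-dense genes (194 genes matched). Of 63 windows of peak-dense genes whose RNA was highest in rod-like cells 11.1% held it (7 windows), beside 9.09% for cone-like, 6.78% for bipolar-like, 6.82% for microglia-like, 5.41% for Müller-like and 0% for inner neuron-like cells. A match is only a stretch of these letters and shows no binding. The Cngb1 window lay under a WT peak of 3079 bp and a KO peak of 2679 bp. The Abca4 window lay under peaks of 7388 and 7170 bp, and that of Epb41l2 under peaks of 7380 and 7239 bp. At Rgs9 the widths were 4838 bp in WT and 2734 bp in KO, and at Casz1 9626 and 6022 bp. At Rora the WT peak was 683 bp wide and the KO peak 4277 bp. The Nckap5 window overlapped no WT peak and 246 of its bases lay under a KO peak of 1939 bp.

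Peak-dense genes had more peaks in KO than in WT. The ratio of KO to WT peaks was 1.32 (exact binomial 95% interval 1.28 to 1.36), beside 1.54 over all annotated genes and 1.60 for the whole lists. Choosing genes by their WT peaks lowers this ratio by construction, and the 688 genes chosen instead by at least 20 KO peaks, 253 of them among the 266, had a ratio of 1.66. Intervals of ratios cover counting error only, do not allow for that choice, and serve as no test. The KO list was the longer one as a whole, so a ratio of 1 in a gene lies below the lists' own ratio. Covered length gave a ratio of 1.31 (6594251 bp in WT and 8667295 bp in KO) against 1.42 over all annotated genes. There was 1 library per genotype and no test of the genotype is possible on the lists.

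Of the 266 genes, 225 had more KO than WT peaks, 8 the same number and 33 fewer. Among all genes with a peak in either list, 57.8% had more KO peaks and 6.4% fewer. Among the 996 genes with 10 to 19 WT peaks, which are more like the peak-dense genes, 80.1% had more and 11% fewer. The peak-dense genes were thus near this second background in both directions. At least 2 times as many KO as WT peaks were annotated to 11 of the 266. That was a smaller share than the 88 of 996 genes with 10 to 19 WT peaks (8.84%) and the 3957 of all 17837 annotated genes. The ratio of single genes ran from 0.636 to 2.95 with a median of 1.25.

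**Figure D1:**
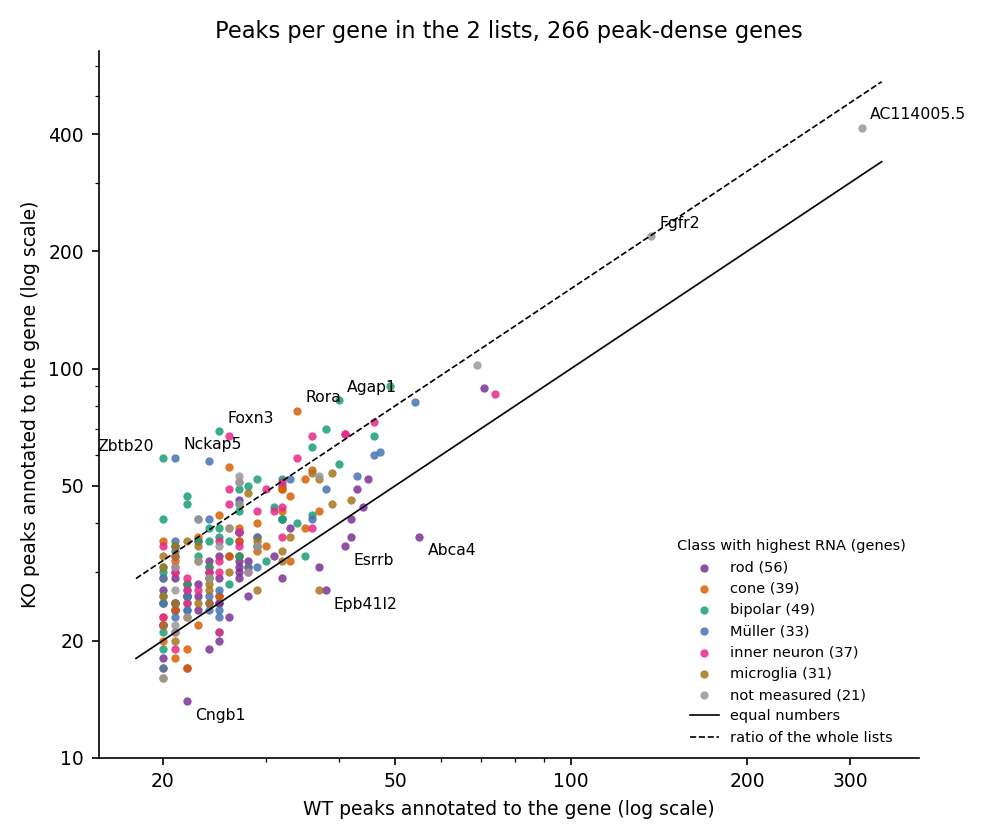
WT and KO peaks annotated to each of the 266 peak-dense genes, both axes on log scales, 1 point per gene, coloured by the retinal class with the highest median RNA. The solid line marks equal numbers and the dashed line the ratio of the 2 whole lists (1.60). Cngb1, Abca4 and Epb41l2 lie below the solid line, while Zbtb20, Nckap5 and Foxn3 lie above the dashed line.

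Genes with 1 to 4, 5 to 9 and 10 to 19 WT peaks had ratios of 1.61, 1.45 and 1.38. The ratio was 1.29 at 19 WT peaks, 1.30 at 20 and 1.33 at 25 or more. With a mean of at least 20 peaks over both lists, an alternative chosen after the data were seen, 403 genes had a ratio of 1.49. The 31 genes just inside the threshold, with 20 WT peaks each (such as Arhgap10, Atp2b2 and Dtnbp1), had 620 WT and 808 KO peaks. The 43 genes just outside, with 19 WT peaks each (such as Alk, Anks1 and Apbb2), had ratios from 0.842 to 2.11 with a median of 1.21, and those inside from 0.8 to 2.95 with a median of 1.25.

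Peaks of retinal marker genes are set beside the ratio of the whole lists, 1.60. The 20 rod markers, among them the peak-dense Cngb1 and Pde6a, had 161 peaks in WT and 161 in KO, and each had a promoter peak in both lists. The 15 bipolar markers, among them the peak-dense Otx2 and Prkca, had 111 WT and 244 KO peaks. Müller markers (16 genes) had 56 and 106 peaks and amacrine markers (14 genes) 56 and 108. The numbers were 35 and 55 for 12 cone markers, 21 and 51 for 10 ganglion cell markers, 17 and 31 for 7 horizontal cell markers, and 12 and 22 for 5 astrocyte markers. They were 29 and 62 for 10 endothelial and pericyte markers, 15 and 25 for 9 pigment epithelium markers, and 21 and 30 for 10 microglial markers, of which 2 had a promoter peak in WT and 3 in KO. The cone, pigment epithelium and microglial numbers were near or below the ratio of the lists. In a list pooled over all cells of a library, fewer cells of a type and less accessibility per cell cannot be told apart. The part of these markers' cell types in the results on peak-dense genes was not tested.

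Most WT peaks of the peak-dense genes were found again in KO. A peak was called shared where it overlapped a peak of the other list by at least 1 bp. Of the WT peaks of these genes 90.1% (exact binomial 95% interval 89.4 to 90.7%) were shared, against 94.1% over all annotated genes and 92.1% for genes with 10 to 19 WT peaks. Of the KO peaks 66.0% (65.1 to 67.0%) were shared, against 59.9% over all annotated genes and 65.5% for genes with 10 to 19 WT peaks. The remainder were 728 WT peaks and 3287 KO peaks found in 1 list. These were narrow, with a median width of 216 bp in WT against 561.5 bp for shared WT peaks, and 331 bp in KO against 751 bp. Over all annotated genes these widths were 251 and 585 bp in WT and 352 and 765 bp in KO. By gene, the shared share of WT peaks ran from 50% to 100% with a median of 92%. It was 100% in 45 genes and under 70% in 8.

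Promoter peaks of these genes were nearly all shared, and the peaks found in 1 list were mostly distal, as they were over all annotated genes. The peak-dense genes had 371 WT and 400 KO promoter peaks, a ratio of 1.08, and 99.5% of the WT promoter peaks were shared. Distal peaks, which the authors' annotation separates from promoter peaks (a peak with both types was counted in each), numbered 6965 in WT and 9292 in KO, a ratio of 1.33, with 89.6% of the WT peaks and 64.9% of the KO peaks shared. Over all annotated genes promoter peaks had a ratio of 1.12 with 99.7% of WT peaks shared, and distal peaks a ratio of 1.66 with 92.6% of WT and 54.5% of KO peaks shared. Of the 325 windows before transcript starts 249 lay under a WT peak (76.6%), and each of these 249 also lay under a KO peak. KO peaks covered 271 of the windows (83.4%). Over all windows WT peaks covered 41.8% and KO peaks 47.5%.

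Phototransduction is the cascade that turns light into a change of membrane current in the outer segment. A list of 32 genes of the cascade and its visual cycle held 4 peak-dense genes, and each had fewer peaks in KO. Together they had 124 WT and 88 KO peaks, a ratio of 0.71 (0.534 to 0.940), and 0.617 of the WT covered length. Their shared share was 55.6% (46.5 to 64.6%) of the WT peaks and 87.5% (78.7 to 93.6%) of the KO peaks. Of the 55 WT peaks found only there the median width was 207 bp, against 828 bp for the shared ones. The whole list of 32 genes had 274 WT and 266 KO peaks, with more KO peaks at 13 genes, the same number at 10 and fewer at 9. Of its peaks 70.8% in WT and 87.2% in KO were shared, and its covered length in KO was 0.815 of that in WT. The KO share of the 4 genes was thus near that of the whole list. Its median ratio was 1, against 0.723 for the 4 genes and 1.25 for all 266. These 4 were in the list by their function and among the 266 by their WT peaks, so the direction was partly fixed by that choice. Over 5 other ways of counting the peaks, the ratio of Pde6a ran from 0.44 to 1.89 and that of Rgs9 from 0.364 to 1. Those of Abca4 (0.436 to 0.868) and Cngb1 (0.455 to 0.75) stayed below 1.

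Abca4 encodes the outer-segment transporter that clears retinoid products, and its gene lies at chr3:122043891-122180070. It had 55 WT and 37 KO peaks (ratio 0.673, 0.431 to 1.04). Inside the RefSeq gene there were 50 WT and 31 KO peaks, which is 36.7 and 22.8 per 100 kb. Of the 22 peaks found only in WT 21 lay inside the gene, the widest at chr3:122058405-122059102 (698 bp). Only 3 peaks were found only in KO, the widest upstream at chr3:122033425-122034092 (668 bp). The promoter peak differed little in width between the lists, as given beside its sequence.

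Cngb1, a subunit of the cation channel that closes in light, lies at chr8:95239043-95306585. It had 22 WT and 14 KO peaks, the lowest ratio of the 266 genes (0.636, 0.301 to 1.30). Its shared share of WT peaks, 50%, was the lowest as well. Of 11 peaks found only in WT 9 lay inside the gene, and the widest was at chr8:95292767-95293710 (944 bp). KO had 3 peaks of its own, 1 of them annotated as a promoter peak, at chr8:95281479-95281786 (308 bp).

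Rgs9 encodes the regulator that speeds the end of the light response, and lies at chr11:109225348-109298181. It had 22 WT and 17 KO peaks (ratio 0.773, 0.385 to 1.52). The 10 peaks found only in WT all lay inside the gene, with a median width of 162.5 bp against 550 bp for the shared ones. Pde6a encodes the catalytic alpha subunit of rod phosphodiesterase. It had 25 WT and 20 KO peaks, 52% of the WT peaks were shared, and its covered length in KO was 0.497 of that in WT. The 12 peaks found only in WT had a median width of 176 bp, though the widest was 2978 bp.

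**Figure D2:**
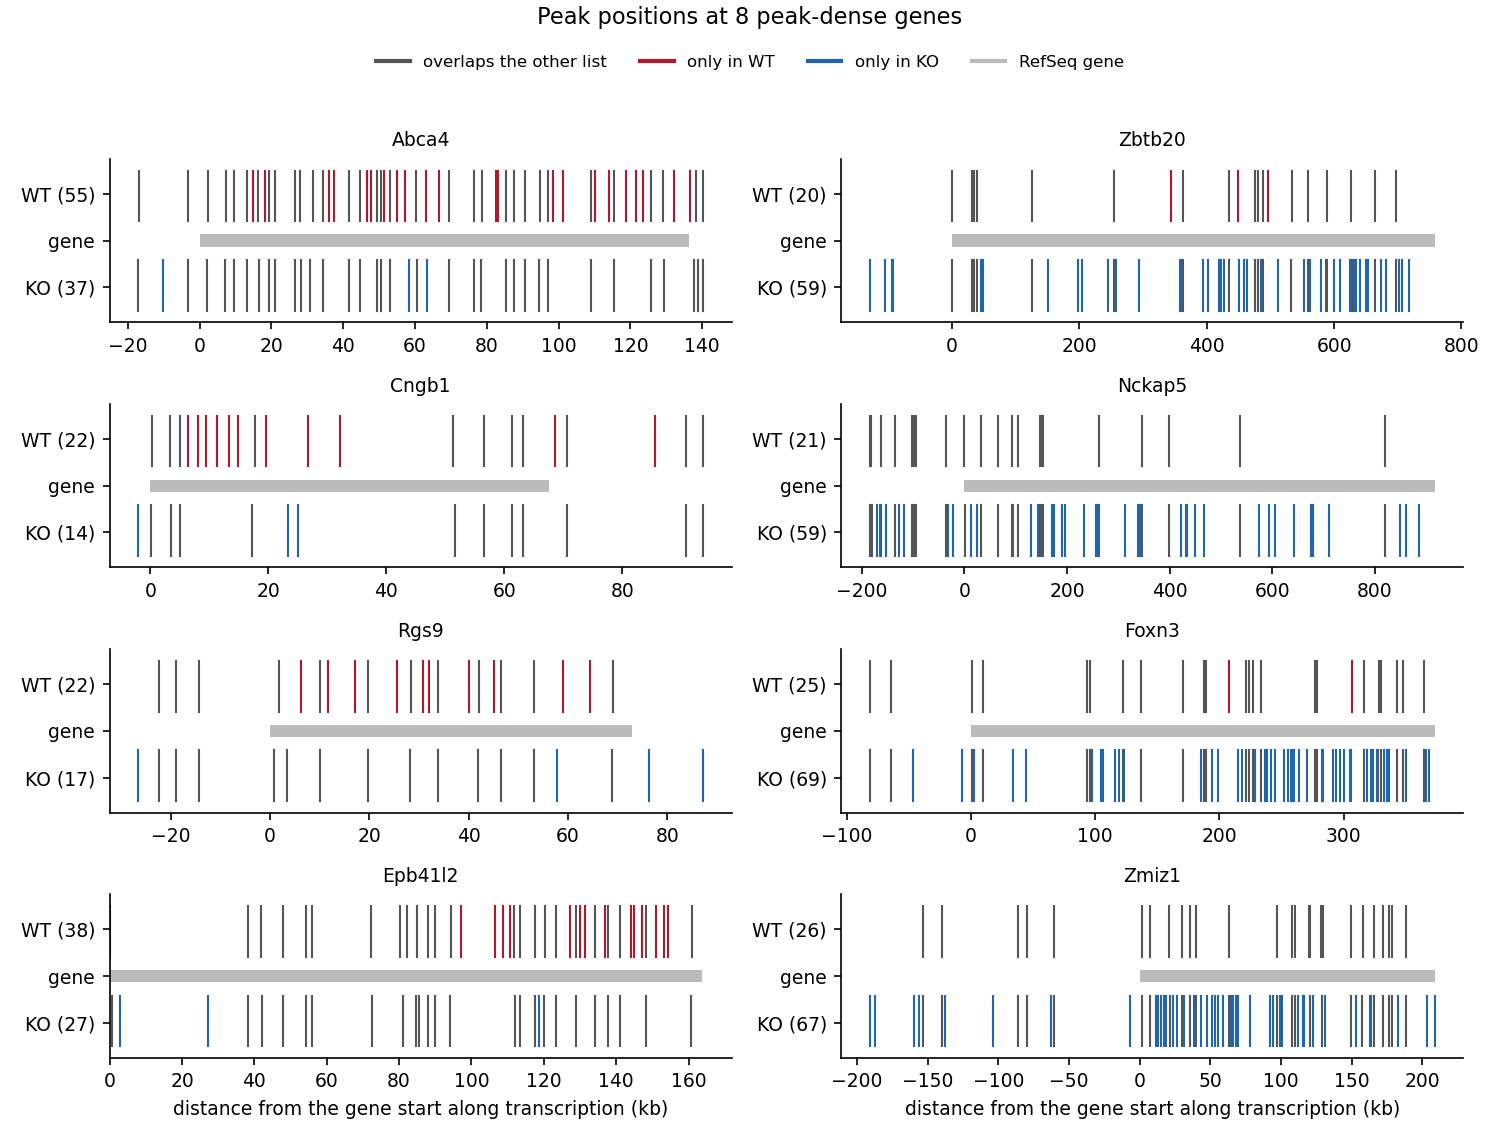
Peaks along 8 peak-dense genes, with the distance from the RefSeq gene start in kb along the direction of transcription on the x axis, WT peaks above the gene bar and KO peaks below it (numbers in brackets). Each line is 1 peak, grey where it overlaps the other list, red where it is only in WT and blue where it is only in KO. The 4 genes on the left carry 22, 11, 10 and 14 peaks only in WT, and the 4 on the right 42, 38, 46 and 43 peaks only in KO.

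Other genes at the low end of the ratio were Epb41l2, Aff1 and Dmd. Epb41l2 encodes a membrane skeleton protein of the band 4.1 family. It had 38 WT and 27 KO peaks, all inside the gene, a ratio of 0.711 (0.417 to 1.19) and 63.2% of WT peaks shared. Its widest peak, of 11351 bp in WT and 10936 bp in KO, was kept, while 14 peaks with a median width of 265.5 bp were found only in WT. They included 2 of promoter type, the only WT promoter peaks of the 266 genes that overlapped no KO peak. Aff1, a subunit of elongation complexes, had 37 WT and 27 KO peaks but a covered length 1.07 times that of WT. Its widest peak was 19947 bp in WT and 24511 bp in KO, and 86.5% of its WT peaks were shared. Dmd, the very long dystrophin gene on the X chromosome, had 22 WT and 17 KO peaks, and 59.1% of the WT peaks were shared.

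The 33 genes with fewer KO peaks had a median shared share of 75% of their WT peaks, with a range from 50% to 100%. Besides the genes described, those highest in RNA of rod-like cells included the membrane skeleton gene Epb41 (42 and 37 peaks), the kinase gene Taok3 (24 and 19), Pex5l (37 and 31) and the G protein gene Gnaz (26 and 23), all named after their values were seen. The covered length was lower in KO in 22 of the 33. Over all 266 genes 38 had a lower covered length, and 15 of these had more KO peaks, so that number and length did not always go together.

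Transcription factors of photoreceptors were described from a list of 20, of which 7 were peak-dense. Together these 7 had 214 WT and 284 KO peaks, a ratio of 1.33 (1.11 to 1.59), near that of all 266 genes, and 90.7% of their WT peaks were shared. The whole list had a ratio of 1.34. More KO peaks were annotated to 6 of the 7 and fewer to Esrrb alone.

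Otx2 encodes the homeodomain factor that specifies photoreceptors and bipolar cells. It had 23 WT and 33 KO peaks, each WT peak was shared, and the covered length went from 29471 bp in WT to 46016 bp in KO. Its gene is only 10864 bp long, and 4 of the WT and 2 of the KO peaks lay in it. The promoter peak was 7549 bp wide in WT and 12998 bp in KO. Rora, a nuclear receptor used in cone opsin control, had 34 WT and 78 KO peaks (ratio 2.29, 1.52 to 3.54), with each WT peak shared and 47 peaks only in KO. Shared WT peaks had a median width of 467 bp there, and the peaks only in KO 323 bp.

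Esrrb, a nuclear receptor needed for rod survival, had 41 WT and 35 KO peaks and 69298 and 51065 bp of covered length. All its KO peaks were shared, and 15 WT peaks were not, 14 of them inside the gene. Its widest peak was 14966 bp in WT and 8563 bp in KO. Casz1, a zinc finger factor of rods, had 42 and 46 peaks with each WT peak shared and nearly the same covered length (119599 and 122306 bp). Its widest WT peak of 22332 bp had no KO counterpart of that width, where the widest was 12641 bp. Mef2c had 22 and 26 peaks, Prdm1, which holds photoreceptor fate against bipolar fate, had 20 and 23, and Thrb, the thyroid hormone receptor that sets cone type, had 32 and 43.

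Genes of inherited retinal degeneration and of the cilium lay in between. Of 46 listed genes 5 were peak-dense, with 129 WT and 143 KO peaks, a ratio of 1.11 (0.868 to 1.42) and 82.2% of WT peaks shared. Pcdh15, a cadherin of the photoreceptor outer segment base, had 30 WT and 35 KO peaks, and the cadherin gene Cdh23 had 23 and 32. Rims2, a ribbon synapse protein, had 24 and 31. Tub, which brings receptors to the cilium, had 20 and 16, and the 6 peaks found only in WT all lay outside the gene with a median width of 12.5 bp. Elovl4, the enzyme of very long fatty acids in outer segments, was named for its RNA in rods and had 20 WT and 18 KO peaks.

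**Figure D3:**
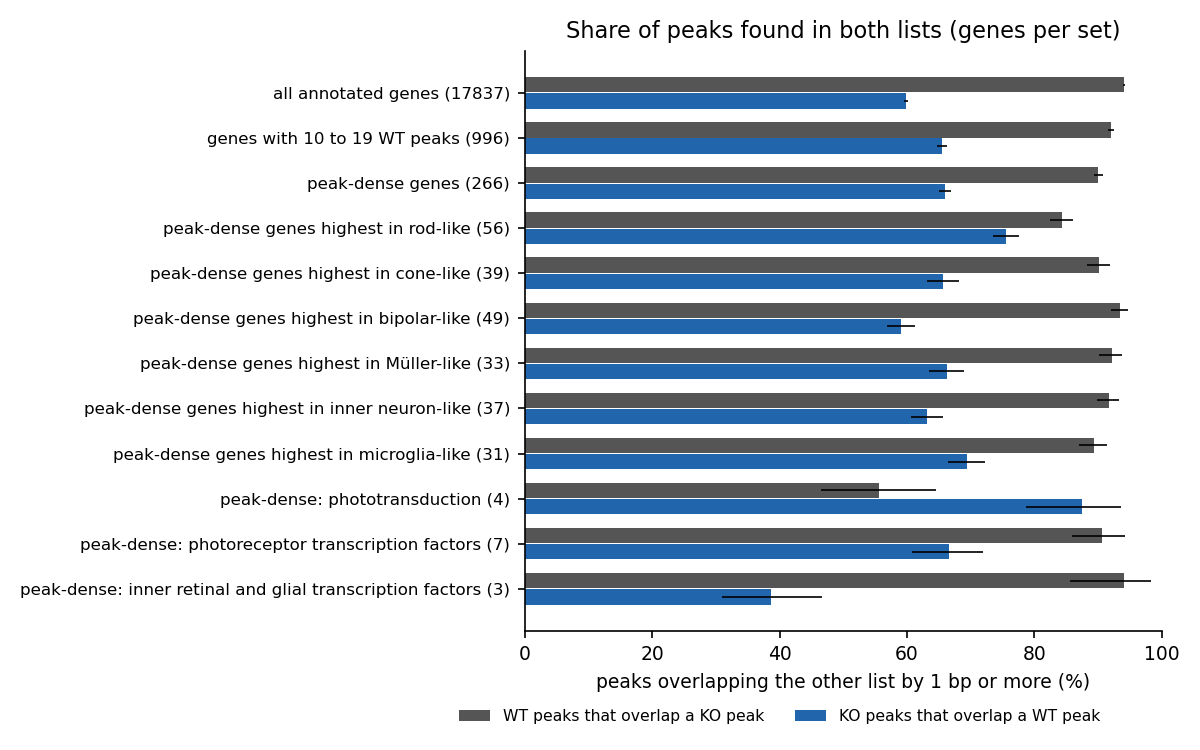
Share of WT peaks that overlap a KO peak (grey) and of KO peaks that overlap a WT peak (blue), in percent on the x axis, for all annotated genes and for sets of peak-dense genes (number of genes in brackets), with exact binomial 95% intervals as bars for counting error only. The phototransduction genes have the lowest WT share (55.6%) and the highest KO share (87.5%) of the sets drawn.

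At the other end stood 11 genes with at least 2 times as many peaks in KO. In 7 of them each WT peak was shared, and the lowest share was 85%. Their KO peaks were shared to 28.8 to 46.7%. Zbtb20, a zinc finger factor of glia and neurons at chr16:42875689-43634392, had 20 WT and 59 KO peaks, the highest ratio (2.95, 1.75 to 5.17). The widest of its 42 peaks found only in KO were at chr16:43505499-43507212 (1714 bp) and chr16:43525303-43526448 (1146 bp). The covered length was 15998 bp in WT and 41688 bp in KO.

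Nckap5, at chr1:125913636-126830796, had 21 WT and 59 KO peaks (ratio 2.81, 1.68 to 4.87), and its widest peak found only in KO was the promoter peak of the internal start shown above, chr1:126491235-126493173. Foxn3, a forkhead factor at chr12:99190081-99563667, had 25 WT and 69 KO peaks (ratio 2.76, 1.72 to 4.55). Its density inside the gene was 6.16 peaks per 100 kb in WT and 17.4 in KO. Zmiz1, a coregulator at chr14:25457875-25666743, had 26 and 67 peaks (ratio 2.58, 1.62 to 4.22), with 43 only in KO. In Zbtb20, Nckap5, Foxn3 and Zmiz1 the peaks found only in KO had median widths from 385.5 to 439 bp. The median of such peaks was 331 bp over all 266 genes and 352 bp over all annotated genes.

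The other genes with at least 2 times the peaks, named after their values were seen, were Rora, Tcf4, Agap1, Shank2, Dab2ip, Pde4b and Maml3. Agap1, a regulator of endosome traffic, had 40 WT and 83 KO peaks. Shank2, a scaffold of excitatory synapses, had 26 and 56, and Dab2ip, a Ras regulator, had 22 and 47. Pde4b, a cAMP phosphodiesterase, had 22 and 45, and Maml3, a Notch coactivator, 20 and 41. The KO list held from 24 to 47 peaks of its own at each of these 7 genes.

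Inner retinal and glial transcription factors had the highest ratio of the lists. Only 3 of the 58 listed genes were peak-dense (Zbtb20, Tcf4 and Meis1), with 68 WT and 158 KO peaks, a ratio of 2.32 (1.74 to 3.13). The list as a whole had a ratio of 2.63, and 57 of its 58 genes had more KO peaks. Tcf4, a basic helix-loop-helix factor, had 24 WT and 58 KO peaks, and Meis1, a homeodomain factor, 24 and 41. The ratio of 12 synapse and adhesion genes of 90 listed was 1.51, and each of the 12 had more KO peaks. Among them Ntm had 49 and 90, Cadm1 54 and 82, Ank3 46 and 73 and Ncam1 43 and 53 peaks. The whole list had a ratio of 2.54. The 3 peak-dense ion channel genes of 58 listed had a ratio of 1.10 (0.803 to 1.51), while the whole list had 298 WT and 777 KO peaks, a ratio of 2.61. Among them were Cacnb2, a calcium channel subunit of the photoreceptor synapse, with 28 and 32 peaks, and the calcium release channel gene Itpr2 with 24 and 24. The 4 chromatin regulators of 45 listed had a ratio of 1.43, and the whole list 1.48. Arid1b, a remodeller subunit, had 41 and 68 peaks with each WT peak shared, Chd7, another remodeller, 33 and 47, Jarid2, a Polycomb subunit, 32 and 44, and the DNA methyltransferase gene Dnmt3a 29 and 34. Ppp2r2b, a phosphatase subunit, and Prkca, the protein kinase of rod bipolar cells, also had each WT peak shared, with 36 and 55 and 36 and 63 peaks.

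The highest peak numbers rested partly on how peaks were assigned. AC114005.5 had 314 WT and 416 KO peaks and Fgfr2, a growth factor receptor, 137 and 219, but only 1 WT and 8 KO peaks of Fgfr2 lay in its RefSeq gene of 104358 bp. RP24-559D1.1 had 69 and 102 peaks and, like AC114005.5, was not matched to RefSeq. For Rasgef1b too most WT peaks lay more than 200 kb from the gene. The 3 genes RP23-407E2.4, RP23-407E2.5 and RP23-407E2.6 shared the same peaks. Without these 7 genes, chosen after the data were seen, the ratio of KO to WT peaks was 1.31 over 259 genes. Next came Camta1, a calcium-responsive factor, with 74 and 86 peaks, and Msi2, an RNA-binding protein, with 71 and 89. Phactr1 had 47 and 61.

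Peak-dense genes were long. The 259 matched genes had a median length of 188820 bp, against 17149 bp over 21896 protein-coding genes of RefSeq, and 79.5% of their WT peaks and 78.6% of their KO peaks lay inside the gene. Short genes among them, such as Otx2, Tub (23580 bp) and Elovl4 (27614 bp), had most of their peaks outside the gene.

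The RNA data placed these genes in cell classes. Wells were clustered without the peak-dense genes and named from markers, and reads were summed by class and library. Of the 266 genes 259 had an RNA row, and 245 had a median of at least 5 CPM in some class. RNA was highest in rod-like cells for 56 genes (22.9% of the 245), against 14.7% of all 11693 genes measured and 20.5% of those with 10 to 19 WT peaks. The number was 55 of 246 without the library labelled WT 1 month. The numbers were 49 in bipolar-like, 39 in cone-like, 37 in inner neuron-like, 33 in Müller-like and 31 in microglia-like cells, with backgrounds of 20.4%, 12%, 19.4%, 20.7% and 12.7%. The microglia-like class entered from the 3 KO libraries alone, with 11 to 19 wells each. The assignment was loose, since only 125 of the 245 genes were highest in their class in most of its libraries, and 24 of the 56 in rod-like cells. RNA of other cells was present in every class: the summed rod markers had 15003 to 106417 CPM in the non-rod classes and 83966 to 157492 CPM in rod-like cells, and its part in the assignment was not tested.

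Genes highest in rod-like cells had the lowest peak ratio of the classes. They had 1598 WT and 1762 KO peaks, a ratio of 1.10 (1.03 to 1.18), with 84.4% of the WT peaks shared. The ratio was 1.24 in microglia-like, 1.32 in cone-like, 1.35 in Müller-like, 1.41 in inner neuron-like and 1.51 in bipolar-like genes. The same order at its ends was present outside the peak-dense genes: genes with 10 to 19 WT peaks had a ratio of 1.21 when highest in rod-like and 1.57 when highest in bipolar-like cells. Of the 32 measured genes with fewer KO peaks 14 were highest in rod-like cells, and of the 11 with at least 2 times the peaks 0 were, while 6 were highest in bipolar-like cells.

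Examples follow the classes. Cngb1 had a median of 2494 CPM in rod-like cells against 1017 in bipolar-like cells, and Elovl4 1200 against 533. In cone-like cells the genes with the highest RNA were Map1b (37 WT and 43 KO peaks), Tax1bp1 (26 and 33) and Dmd. In bipolar-like cells they were Zbtb20 (842 CPM), Prkca (663 CPM) and Macf1 (24 and 29 peaks). Syt1, the calcium sensor of synaptic release, had 3783 CPM in inner neuron-like cells and 26 and 49 peaks, Celf4 had 34 and 59 and Rtn1 21 and 21. In microglia-like cells they were Tub, Casz1 and Med13l (37 and 52 peaks). The median of Casz1 was 313 CPM there and 296 CPM in rod-like cells, and that of Tub 374 and 83.1 CPM.

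**Figure D4:**
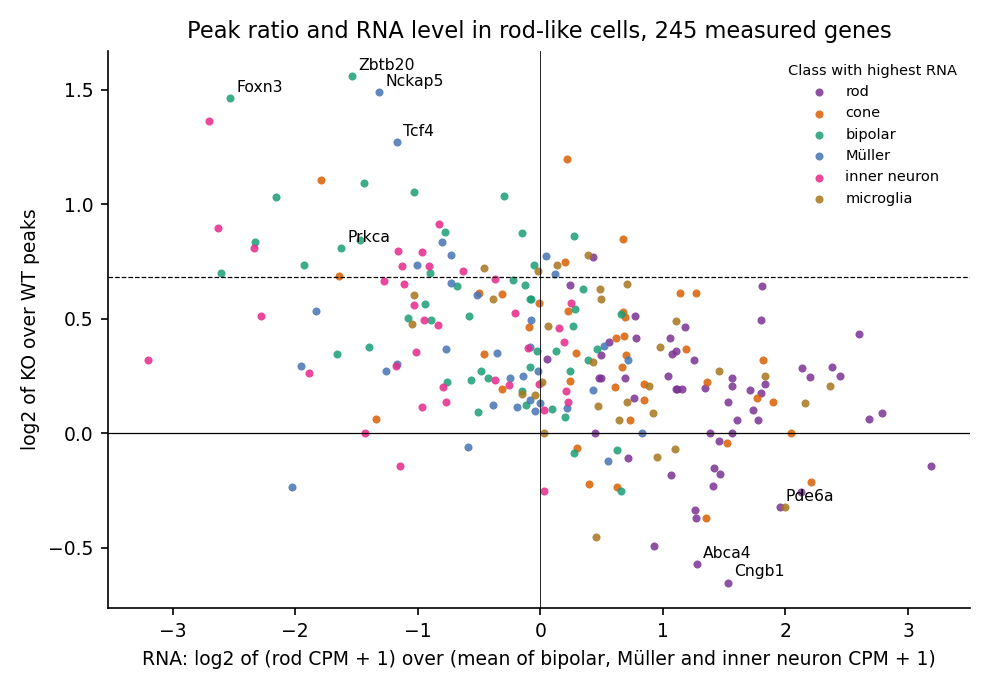
The log2 ratio of KO to WT peaks (y axis) against the RNA level in rod-like cells relative to bipolar-, Müller- and inner neuron-like cells (x axis, log2 after adding 1 CPM), 1 point per measured gene (245), coloured by the class with the highest RNA. The solid horizontal line is equal numbers and the dashed line the ratio of the whole lists. Cngb1 and Abca4 lie at the lower right, and Foxn3, Zbtb20 and Nckap5 at the upper left.

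Across the 245 genes the log2 peak ratio and the relative rod level of RNA had a Pearson r of −0.52 and a Spearman rho of −0.51. This is across genes, which share the same libraries and are not independent replicates. The values were −0.42 and −0.37 over 806 genes with 10 to 19 WT peaks and −0.63 and −0.61 over 362 genes with a mean of at least 20 peaks. Over the 245 genes they were −0.49 and −0.49 without the library labelled WT 1 month. Of 60 genes with at least 2 times more RNA in rod-like cells than in the mean of those classes, 17 had fewer KO peaks (28.3%) and the median ratio was 1.13. Of 41 genes with at least 2 times less, 2 had fewer (4.88%) and the median ratio was 1.59. None of the first group exceeded a ratio of 1.56.

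Whether the RNA of these genes differed between genotypes in rods was tested with reads summed over rod-like cells, ages serving as replicates. The rod-like wells did not fall evenly over clusters: a cluster led by Sncg and Nefm, genes known from ganglion cells, held 408 of the 503 KO wells of 6 months, 128 of 545 and 85 of 415 at 1 and 3 months, and 1 of 419, 4 of 136 and 63 of 212 of the WT wells. Its leading genes against the other classes included 4 listed rod markers (Cnga1, Pde6a, Rp1 and Nr2e3), and those against all other clusters included 0. edgeR's quasi-likelihood test called 0 of the 245 peak-dense genes in the fit at a Benjamini-Hochberg adjusted p under 0.05, and 8 of 13048 genes in all (0.0613%). At an unadjusted p under 0.05 there were 41 peak-dense genes, 15 higher and 26 lower in KO, against 11.8% of all genes, with 7.9% higher and 3.92% lower. DESeq2, run as an alternative, called 30 of them, 15 in each direction, against 9.62% of all genes. Without the Sncg and Nefm cluster, an alternative chosen after the data were seen, edgeR called 38 genes, 3 of them peak-dense: Mef2c (log2 change −1.74, adjusted p 0.0264), Cngb1 (−1.35, 0.0465) and Tcf20 (lower in KO, 0.0465). Fits with other settings called from 0 to 166 genes with edgeR. Markers of other cells differed between the genotypes in the rod-like wells. Summed bipolar markers had 382 to 984 CPM in WT rods and 1357 to 3695 CPM in KO rods, Müller markers 1233 to 3649 and 8242 to 15470 CPM, inner neuron markers 529 to 1061 and 1193 to 1843 CPM, and rod markers 141894 to 157492 and 83966 to 119078 CPM. Their part in the RNA values of the peak-dense genes was not tested. The median log2 change of the peak-dense genes was −0.06 against 0.27 for all genes. With library size in place of TMM scaling these medians were 0.31 and 0.64, so the sign of the former depends on the scaling while it stayed below that of all genes. Without the library labelled WT 1 month it was −0.06 against 0.41.

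At the 2 ends of the peak ratio the median RNA differences in rods had opposite signs, although edgeR's main fit called no gene at either end. With no filter on low counts edgeR called 1 gene with fewer KO peaks and 2 with at least 2 times the peaks. Leaving out 6 months gave 1 and 1, and leaving out the Sncg and Nefm cluster 1 and 0. The remaining edgeR settings called none. DESeq2 called 6 of the 31 genes with fewer KO peaks and 6 of the 11 with at least 2 times the peaks, against 9.62% of all genes. The 31 genes in the fit with fewer KO peaks had a median log2 change of −0.62, and 24 of them were lower in KO rods. The 11 genes with at least 2 times the peaks had a median of 1.71, with 2 lower. Across 242 genes the peak ratio and the log2 change in rods had a Pearson r of 0.47 and a Spearman rho of 0.41, again across genes and as a description. Genes highest in rod-like cells had a median of −0.55. Without the library labelled WT 1 month these 3 medians were −0.61, 1.57 and −0.46, and the correlations 0.41 and 0.42 over 243 genes. With library size scaling the medians were −0.25, 2.09 and −0.18. Over 791 genes with 10 to 19 WT peaks the same correlations in the main fit were 0.31 and 0.31. They were 0.47 and 0.45 over 357 genes with a mean of at least 20 peaks.

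Cngb1 had 3590.5, 2975 and 2982 CPM in the WT rods of 1, 3 and 6 months and 1990, 1583 and 2013 CPM in the KO rods. All 3 KO values were below all 3 WT values. Its log2 change was −1.14 (SE 0.31, edgeR adjusted p 0.243), and −0.96 without the library labelled WT 1 month. In 5 of 9 other settings of the fit Cngb1 stayed uncalled, while edgeR called it with no filter on low counts (−1.15) and without 6 months (−1.33). Pde6a had 1181, 989 and 1376 CPM in WT and 775, 648 and 952 CPM in KO, without overlap between the genotypes. DESeq2 called Cngb1 and Pde6a. The log2 change of Pde6a was −0.95 (SE 0.29, edgeR adjusted p 0.289), and −0.79 without that library.

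Abca4 had 473, 318 and 502 CPM in WT and 464, 268 and 362 CPM in KO. The genotypes overlapped, although each KO value was below the WT value of its age. Rgs9 had 408, 741 and 660 CPM in WT and 411, 425 and 672 CPM in KO, with overlap. The log2 changes were −0.62 (SE 0.28) and −0.62 (SE 0.30), with edgeR adjusted p of 0.408 and 0.441. With library size scaling, which is that of the CPM values, both were −0.25, and the CPM of Rgs9 was higher in KO at 1 and 6 months. Epb41l2 had 1360, 1378 and 1828 CPM in WT and 1088, 1090 and 1207 CPM in KO, without overlap (log2 change −0.79, SE 0.28, edgeR adjusted p 0.300). Without the library labelled WT 1 month the log2 changes of Abca4, Rgs9 and Epb41l2 were −0.58, −0.61 and −0.69. DESeq2 called Epb41l2 but neither Abca4 nor Rgs9. With library size scaling Cngb1, Pde6a and Epb41l2 had log2 changes of −0.77, −0.58 and −0.42.

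**Figure D5:**
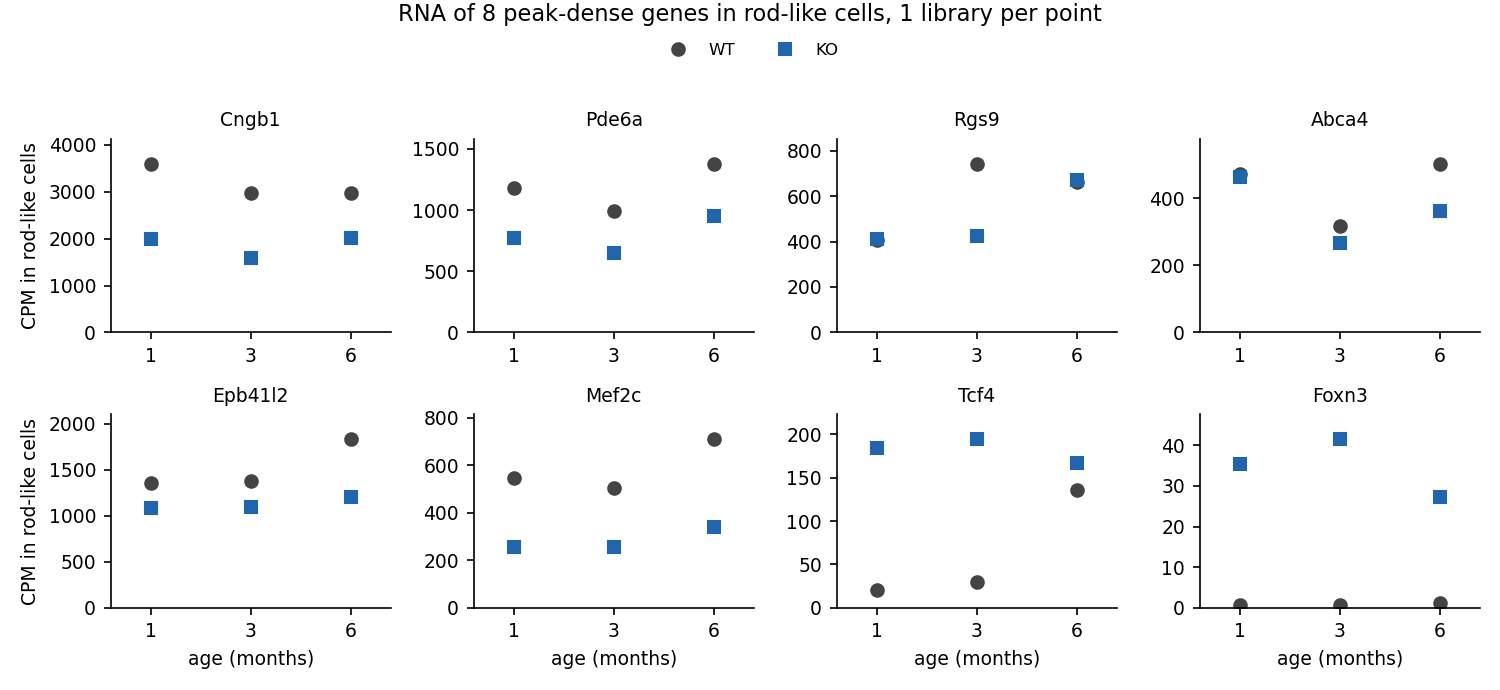
CPM of 8 peak-dense genes in rod-like cells (y axes from 0) at 1, 3 and 6 months (x axes), with 1 point per library, grey circles for WT and blue squares for KO. Cngb1, Pde6a, Epb41l2 and Mef2c have all KO points below all WT points, Tcf4 and Foxn3 have all KO points above, and Rgs9 and Abca4 overlap.

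Among the photoreceptor factors Mef2c had 546, 506 and 708 CPM in rods of WT and 257, 257 and 339 CPM in rods of KO, without overlap. Its log2 change was −1.41 (SE 0.29, edgeR adjusted p 0.111), and −1.24 without the library labelled WT 1 month. In 5 of 9 other settings of the fit Mef2c stayed uncalled, and its log2 change ran from −1.74 to −1.04. It had slightly more peaks in KO, with a ratio of 1.18, below that of the lists. Casz1 had 379, 369 and 314 CPM in WT and 248, 279 and 273 CPM in KO (log2 change −0.78, edgeR adjusted p 0.333), without overlap, and −0.52 without the library labelled WT 1 month. Esrrb, with fewer KO peaks, had 183, 55.0 and 118 CPM in WT and 151, 89.0 and 80.4 CPM in KO, which overlapped. Rora, with 2.29 times the peaks, had 345, 383 and 379 CPM in WT and 295, 371 and 283 CPM in KO, again with overlap. Otx2 had 105, 102 and 255 CPM in WT and 280, 184 and 208 CPM in KO. Rora thus had more peaks in KO beside overlapping RNA. Casz1 had lower RNA beside a peak ratio of 1.10, which was above 1 but below the ratio of the lists, 1.60. Rims2 had 404, 390 and 627 CPM in WT and 176, 244 and 419 CPM in KO (log2 change −1.18, edgeR adjusted p 0.238), with overlap, and its log2 change was −0.85 without the library labelled WT 1 month. Elovl4 had 1224, 1465 and 1634 CPM in WT and 909, 906 and 1175 CPM in KO (log2 change −0.90, edgeR adjusted p 0.299), without overlap, and −0.80 without that library. DESeq2 called Mef2c, Rims2 and Elovl4, and not Casz1, Esrrb, Rora or Otx2. With library size scaling Casz1 and Elovl4 had −0.40 and −0.53. The smallest adjusted p of the peak-dense genes belonged to Tcf20, named after its values were seen (log2 change −1.87, edgeR adjusted p 0.0769), and without the library labelled WT 1 month it had −1.72 (0.376).

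None of the 5 genes with the highest peak ratios passed edgeR's test in rods at the adjusted p in the main fit. DESeq2 called Foxn3, Zmiz1, Nckap5 and Tcf4. Of 9 other settings of the fit, DESeq2 among them, 7 left Foxn3 uncalled and 6 left Tcf4 uncalled. Some of the other edgeR settings thus called these genes. Zmiz1 and Nckap5 stayed uncalled in 8 of the settings each and Zbtb20 in 9. Foxn3 in WT rods had 0.742, 0.785 and 1.22 CPM, and in KO it had 35.3, 41.4 and 27.3 CPM, without overlap. In bipolar-like cells it had 240, 111 and 204 CPM in WT and 265, 213 and 63.6 CPM in KO, which overlapped. Its log2 change in rods was 4.87 (SE 1.20, edgeR adjusted p 0.204), that of Zmiz1 4.18 (0.299) and that of Nckap5 5.48 (0.333). Zmiz1 in rods had 3.30, 1.41 and 0.350 CPM in WT and 29.4, 43.7 and 17.4 CPM in KO, while in bipolar-like cells it had 66.5, 162 and 78.7 CPM and 88.1, 152 and 74.7 CPM. In rods Nckap5 had 0.151, 0 and 15.6 CPM in WT and 20.4, 35.6 and 22.9 CPM in KO. Its log2 change ran from 2.11 to 7.67 over 9 other settings of the fit.

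In rods Tcf4 had 20.7, 30.1 and 136 CPM in WT and 184, 194 and 167 CPM in KO (log2 change 1.71, SE 0.48, edgeR adjusted p 0.248). Without the library labelled WT 1 month its log2 change was 1.26. In bipolar-like cells Tcf4 had 292, 354 and 518 CPM in WT and 477, 288 and 321 CPM in KO. Zbtb20 had 113, 189 and 116 CPM in WT and 258, 315 and 205 CPM in KO, without overlap, and its log2 change was 0.55 (SE 0.31, edgeR adjusted p 0.526). All 5 genes had their highest median CPM in bipolar-, Müller- or inner neuron-like cells, whose summed markers were higher in KO than in WT rods, as given above. Without the library labelled WT 1 month the log2 changes of Foxn3, Zmiz1, Nckap5 and Zbtb20 were 4.85, 5.04, 3.81 and 0.56, and with library size scaling that of Zbtb20 was 0.92, beside a median of 0.64 over all genes.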

How the data were processed

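Peak lists of 2 ATAC libraries and read counts per gene and well of 6 RNA libraries were used. Per the submitters' processing notes, Cell Ranger ATAC 1.1.0 with mm10 made the peaks. The deposited lists give each peak's position, genes, type and a distance to each gene in base pairs, with no signal, and each peak list belongs to 1 library. The deposited RNA tables hold raw counts of reads, and the submitters' processing notes name CASAVA, TopHat2, HTSeq and Seurat with mm10 and GRCm38. Use of molecular identifiers is not given in the sources used here. Counting on reads without them makes CPM depend on amplification.

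The genes, lists and settings were chosen with earlier results of these data known. A gene entered with at least 20 WT peaks. Named genes were the 10 with the most WT peaks, the 5 at each end of the peak ratio and of the shared share, the members of 3 gene lists, and the 3 with the highest CPM per class. Some members of the lists are not reported here. Intervals are exact binomial at 95%, cover counting error only, and treat peaks as independent. Build use was checked: of 10214 WT promoter annotations whose gene had a RefSeq (GRCm38.p6) promoter, 95.1% lay within 1000 bp of it.

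Of 3747 deposited wells 3746 passed a minimum of 300 genes and a maximum of 30% mitochondrial reads. They were clustered on 2000 variable genes without the peak-dense genes, with 30 principal components, 15 neighbours and Leiden resolution 1 (scanpy 1.11.5). Clusters were named from marker lists. The naming score and the merging of amacrine, ganglion and horizontal cells into inner neurons were set after the clusters were seen, and no doublet caller was run. Cngb1, Pde6a, Otx2 and Prkca stand in both the markers and the 266 genes. A class entered with at least 10 wells in a library, so Müller-like cells of WT 3 months (9 wells) did not. Rod sums were fitted with edgeR 4.0.16 (TMM, filterByExpr, age as factor plus genotype). DESeq2 1.42.0 was an alternative. Nothing says the libraries came from separate animals. The scripts were tested on simulated data.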

Additional observations from a re-analysis of the deposited data

How the results depend on the processing

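All 5 peak results kept close to their values only when the first gene named was used and without the 7 genes with distant or identical peaks, and each other choice moved at least 1. With thresholds of 15 and 25 WT peaks only the number of genes with more KO peaks moved, to 438 of 512 and 125 of 147 from 225 of 266. That number follows how many genes are chosen, and the other peak results kept close to their values. With the genes of at least 20 KO peaks the ratio of peaks was 1.66, that of covered length 1.55, the number with more KO peaks 660 of 688, and the shared shares 92.6% (WT) and 54.4% (KO). With a mean of at least 20 over both lists, added after the data were seen, these were 1.49, 1.44, 372 of 403, 91.6% and 59.8%. With only the widest KO peaks, as many as in the WT list (at least 432 bp), the ratio of peaks was 0.831, below 1 by the construction of equal list sizes. Covered length was then 1.17, genes with more KO peaks 40, and shared shares 74.2% and 85.3%. The ratios of AC114005.5 (0.901), Fgfr2 (0.985), RP24-559D1.1 (0.667), Cadm1 (0.852) and Ank3 (0.957) reversed with that choice, and 20 of 45 named genes crossed 1. Peaks of at least 500 bp gave a ratio of 1.39 and a WT share of 92.2%. Joining peaks less than 1000 bp apart gave shares of 91.7% and 67.4%, and non-promoter peaks a KO share of 64.9%. An overlap of at least 50% of the peak gave 85.8% and 52.9%, and of both peaks 64.7% and 49.0%. The number of genes highest in rod-like cells ran from 47 to 72 of those measured, within 1.5 times of 56 in every setting.

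In the rod fit 8 genes were called, and 1206 with DESeq2, 18 with library size only, 166 without a filter, 0 without an age term, and 38 without the rod cluster led by Sncg and Nefm (added after the data were seen). Leaving out 1 age gave 0 (1 month), 98 (3 months) and 151 (6 months), and leaving out the library labelled WT 1 month 0. Of the peak-dense genes, 30 were called with DESeq2, 6 without a filter, 3 without that cluster, and 0 to 3 without 1 age. The cause was not tested. No paired analysis was possible because the labels carry no replicate numbers, other than the pairing by age, which the age term of the rod fit already makes. The unknown ATAC depth limits every peak count.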

Other observations

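The KO list had its own peak-dense genes: 435 genes had at least 20 KO peaks and fewer than 20 WT peaks, with a ratio of 2.09, which their choice by KO peaks sets high. Examples, named after their values were seen, follow. Tenm4, a teneurin, had 14 WT and 58 KO peaks, and Nrxn3, a presynaptic neurexin, 9 and 57. Gpc6, a glypican, had 4 and 52, Auts2 8 and 50, and the zinc finger factor Zfhx3 5 and 49. RNA of these 5 genes was highest in bipolar-like cells. Other genes near the top by KO peaks had other classes, such as Frmd4a (16 and 54 peaks, inner neuron-like), Ppp3ca (18 and 49, Müller-like) and Nav2 (15 and 48, microglia-like). Every WT peak of these 8 genes was shared.

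Peak-dense genes were unevenly spread over chromosomes. On chromosome 18 they were 22 of 429 genes with a WT peak (5.13%), against 1.63% over the genome and 3.13% on the next chromosome, 12. Chromosome 18 held 3.54% of the WT and 3.68% of the KO peaks. The 3 genes with identical peaks are among the 22.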
